A study of Mus musculus with 4 samples.

Results

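The 44 genes described here are interferon-stimulated genes, which cells switch on after an interferon binds its receptor. They were chosen by name with earlier results of these data known, so their counts describe the list and are no independent support. Matched by symbol in the deposited expression tables, all 44 were found among the 23235 genes listed. Of these, 36 are classical targets of type I interferon and 8 are GTPases best known from the response to interferon-gamma (Iigp1, Irgm1, Irgm2, Igtp, Gbp2, Gbp3, Gbp6 and Gbp7), and the 2 classes were described apart. RNA was sequenced from 4 laser-captured samples of mouse uterus, each 1 library: luminal epithelium of a Msx1d/d/Msx2d/d uterus, labelled knockout; luminal epithelium of a Msx1f/f/Msx2f/f uterus, the floxed control; stroma labelled knockout with the same genotype; and stroma of the floxed control. Every female was in day 4 after mating with a vasectomized male, so no embryo was present. The design text names a uterine-specific knockout and a single mouse per genotype; effects of the genotype and of the individual animal therefore cannot be told apart. The Cre driver, the mice's age and strain background, and whether the epithelium and stroma of a genotype came from the same mouse are not stated in the labels.

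Msx1 and Msx2 encode homeobox transcription factors that the uterus uses when it becomes receptive to an embryo. The check of the targeted genes did not separate the epithelial libraries cleanly: Msx1 was at 13.6 RPKM in the library labelled knockout and 23.2 RPKM in control, but Msx2 was at 2.06 RPKM in the library labelled knockout and 1.31 RPKM in control, against the label. RPKM, a read count scaled by transcript length and by library size, covers the whole transcript, and the files do not show which part was deleted. In stroma both genes were under 0.14 RPKM in each library, so they check nothing there. Depth was estimated from the lowest values, which were taken to pile up at whole reads. The epithelial library labelled knockout held about 90.3 M reads and its control 6.17 M, a ratio of 14.6, and the stromal library labelled knockout held about 61.4 M reads and its control 42.3 M. Epithelial markers summed to 526 RPKM in the epithelial library labelled knockout and 460 RPKM in its control, against at most 1.84 RPKM in either stromal library. With 1 library per group there was no replicate and no test across samples; higher and lower describe these libraries only.

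Type I interferons, which include interferon-alpha and interferon-beta, signal through the receptor Ifnar and the kinases Jak1 and Tyk2 to a complex that holds Stat2 and Irf9 and binds the interferon-stimulated response element in the promoters of target genes. Interferon-gamma signals through a separate receptor, Ifngr, and the kinases Jak1 and Jak2, and acts on genes that carry the gamma-activated sequence. The target genes encode sensors of foreign nucleic acid, proteins that block virus replication, and GTPases that attack the vacuoles of intracellular parasites. In the pregnant uterus this response is known both from infection and as part of the preparation of the lining for an embryo.

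The promoters show what the genes share apart from their levels. RefSeq promoter windows of build GRCm38.p6, 250 bases before to 50 bases after each gene start, were found for 33 of the 44 genes, in 38 windows. The core of the interferon-stimulated response element, GAAA, any 2 bases, then GAAA, on either strand, was in 20 of these 38 windows (52.6%), against 1131 of all 32851 windows (3.44%). The core of the gamma-activated sequence, TTC, any 3 bases, then GAA, which reads the same on both strands, was in 9 of the 38 (23.7%), against 8.30% of all windows. A match says only that the letters are there.

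The last 150 bases before the gene start are shown for the 4 type I targets with the largest epithelial difference among those whose window held the response element core. Capitals mark the matches to either core, and the strand of the gene follows its coordinates.
Ifit1, chr19:34640739-34640888 (+): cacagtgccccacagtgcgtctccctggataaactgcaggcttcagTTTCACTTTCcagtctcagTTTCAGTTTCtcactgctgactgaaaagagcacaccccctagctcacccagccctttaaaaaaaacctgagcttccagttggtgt
Isg15, chr4:156200819-156200968 (-): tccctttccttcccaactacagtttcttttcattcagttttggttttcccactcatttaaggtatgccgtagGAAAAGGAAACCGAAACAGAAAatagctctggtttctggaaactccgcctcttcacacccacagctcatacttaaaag
Oas1a, chr5:120907526-120907675 (-): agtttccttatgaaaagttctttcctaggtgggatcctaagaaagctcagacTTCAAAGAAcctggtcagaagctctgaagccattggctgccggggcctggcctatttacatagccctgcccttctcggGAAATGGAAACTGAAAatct
Oas3, chr5:120777660-120777809 (-): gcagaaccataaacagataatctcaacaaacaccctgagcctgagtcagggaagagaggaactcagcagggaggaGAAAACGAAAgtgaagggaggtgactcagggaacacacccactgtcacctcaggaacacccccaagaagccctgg
Isg15 held 3 overlapping copies of the response element core in a single run, and Ifit1 held 2 copies apart from each other, both read on the opposite strand. Oas1a had 2 overlapping copies close to the start, and Oas3 had 1.

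The response element core was in 6 of the 7 GTPase windows (85.7%) and in 14 of 31 windows of type I targets (45.2%), so it occurs in both classes. The 3 GTPases with the largest epithelial difference and the motif are shown in the same way; Iigp1 was not matched here.
Irgm1, chr11:48871421-48871570 (-): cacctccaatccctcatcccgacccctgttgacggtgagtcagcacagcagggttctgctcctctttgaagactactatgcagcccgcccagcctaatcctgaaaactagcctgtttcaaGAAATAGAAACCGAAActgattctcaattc
Gbp3, chr3:142559894-142560043 (+): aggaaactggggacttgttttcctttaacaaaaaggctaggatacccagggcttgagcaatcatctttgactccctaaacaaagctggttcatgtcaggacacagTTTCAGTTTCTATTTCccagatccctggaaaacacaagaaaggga
Gbp7, chr3:142530186-142530335 (+): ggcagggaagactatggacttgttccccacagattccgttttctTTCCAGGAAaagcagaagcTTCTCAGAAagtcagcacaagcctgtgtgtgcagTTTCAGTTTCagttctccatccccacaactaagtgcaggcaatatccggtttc
In Igtp and Irgm2, neighbours on chromosome 11, a gamma-activated sequence core lay 2 bases before the response element core. A stretch of 30 bases around this pair, chosen after the matches were seen, shows that the 2 genes share the arrangement.
Igtp, chr11:58199507-58199536 (+): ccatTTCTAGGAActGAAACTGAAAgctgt
Irgm2, chr11:58214898-58214927 (+): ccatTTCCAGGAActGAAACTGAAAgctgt
Both cores occurred together in 6 of the 38 windows (15.8%), against 0.454% of all windows, and they overlapped each other in 1 of them, that of Bst2. The 19 genes whose window held the response element core had a median epithelial difference of -1.24, and the 14 matched genes without it a median of -1.09, on the log2 scale used for the comparison of genotypes.

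**Figure D1:**
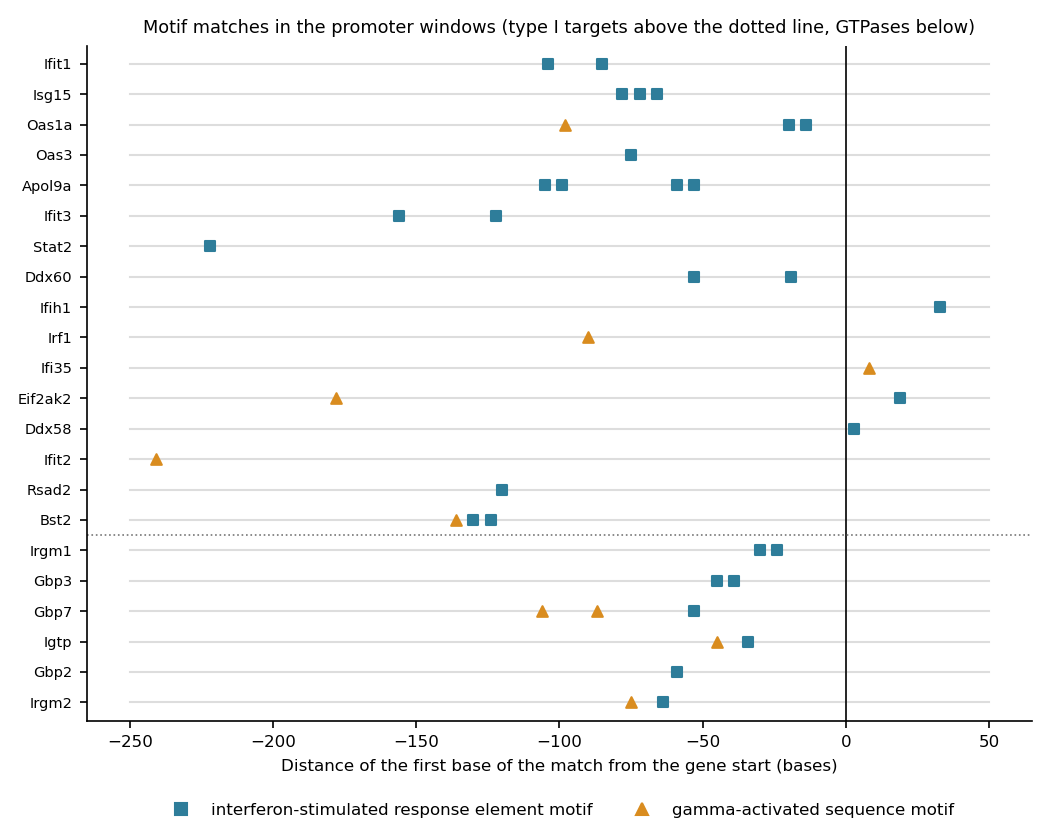
Positions of the matches to the response element core (squares) and the gamma-activated sequence core (triangles) in the promoter windows of the genes with at least 1 match, in bases from the annotated gene start; each row is a gene. Matches lie mostly within about 150 bases before the start, and Oas1a, Bst2, Eif2ak2, Gbp7, Igtp and Irgm2 have matches to both cores.

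In luminal epithelium the whole list was lower in the library labelled knockout: 44 of 44 genes lay below 0 on the scale of log2((labelled knockout + 1)/(control + 1)), in RPKM. At least 2-fold lower on that scale were 30 of 44, and 0 were 2-fold higher, against 0.813% of all 23235 genes 2-fold lower and 1.82% 2-fold higher. Among the 7736 genes whose pair mean reached 1 RPKM, 38.1% lay below 0, 1.99% were 2-fold lower and 5.03% 2-fold higher. The 0 of 44 genes 2-fold higher is near these small shares and says little about the list. The median log2 difference of the 44 genes was -1.25, against 0.10 for those 7736 genes, whose 5th percentile was at -0.60. Summed over the list, the level was 81.4 RPKM in the library labelled knockout and 262 RPKM in control, and the median gene was at 0.562 RPKM labelled knockout and 5.13 RPKM in control. The 2 classes lay close together in epithelium, with a median of -1.27 over the 36 type I targets, 26 of them 2-fold lower, and -1.05 over the 8 GTPases, 4 of them 2-fold lower. A smaller pseudocount of 0.1 RPKM gave 7 of 8 GTPases 2-fold lower and a median of -2.44 over the 44 genes. In captured tissue, fewer cells of a type and less RNA per cell cannot be told apart.

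Leukocyte markers moved with this result. Their summed level over 28 genes was 4.86 RPKM in the epithelial library labelled knockout and 31.6 RPKM in control. Of the 28, 21 lay below 0, against 38.1% of the genes whose pair mean reached 1 RPKM. At least 2-fold lower were 8, against 0.813% of all genes. Lyz2, the lysozyme gene of macrophages, had the largest difference of the 28, at 0.705 RPKM labelled knockout and 7.50 RPKM in control. The 4 markers above 0 were Cd68, Tyrobp, Cd3e and Cd79a. Cd68 was at 0.742 RPKM labelled knockout and 0.565 RPKM in control, on about 69 and 4 reads. Tyrobp was at 0.650 RPKM labelled knockout and 0.454 RPKM in control, on about 21 and 1 reads. The counting limits of both include equal levels. Cd3e and Cd79a each rested on about 1 read labelled knockout and 0 in control. Among the defining markers, Ptprc, the surface protein common to leukocytes, was at 0.0379 RPKM labelled knockout and 0.329 RPKM in control, and S100a8, S100a9 and Ms4a1 were at 0 in each epithelial library. Stromal markers summed to 5.13 RPKM labelled knockout and 11.7 RPKM in control, and smooth muscle markers to 0.534 RPKM labelled knockout and 4.15 RPKM in control. The part of these cell types in the lower interferon-stimulated genes, and that of the gap in depth, was not tested.

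Among the transcription factors, Irf7, which drives the genes of type I interferon itself, had the largest difference, with 1.63 RPKM (about 261 reads) in epithelium labelled knockout and 16.7 RPKM (about 183 reads) in control, 10.3-fold lower with 95% counting limits of 8.45 and 12.4. Irf1, an early responder to interferon-gamma, was at 1.67 RPKM labelled knockout and 4.68 RPKM in control. Stat2 and Irf9 encode the parts of the complex that are particular to the type I response. Stat2 was at 1.95 RPKM labelled knockout and 6.23 RPKM in control, a log2 difference of -1.29. Irf9 was at 4.66 RPKM labelled knockout and 8.03 RPKM in control, a log2 difference of -0.67, short of 2-fold. In stroma all 4 factors were again below 0, but none was 2-fold lower on the log2 scale with its pseudocount.

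Among the sensors of RNA and DNA, Ddx58, which encodes RIG-I, was the most abundant of the 44 genes in control epithelium and differed least, at 13.3 RPKM labelled knockout and 22.9 RPKM in control. Zbp1, a sensor of unusual nucleic acid helices, was at 0.401 RPKM labelled knockout and 6.83 RPKM in control, 17.0-fold lower with limits of 11.1 and 26.2. The other 3 sensors, the helicase genes Ifih1, Dhx58 and Ddx60, lay between 0.158 and 0.434 RPKM in the library labelled knockout and between 1.73 and 2.17 RPKM in control, and each was at least 2-fold lower. In stroma Ddx58 was at 0.955 RPKM labelled knockout and 1.48 RPKM in control, so its level was higher in epithelium than in stroma in both genotypes.

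The antiviral effectors held the largest difference of the list on the log2 scale and also the smallest. Ifit1, which binds foreign RNA by its cap (chromosome 19, 34715379 to 34724499 in mm9), was at 0.344 RPKM (about 76 reads) labelled knockout and 13.7 RPKM (about 208 reads) in control, 39.9-fold lower with limits of 30.7 and 52.8. Ifit3, its partner, was at 0.0323 RPKM labelled knockout and 1.76 RPKM in control, on only 5 and 17 reads. Ifit2, a further protein of this family, was at 0.0810 RPKM labelled knockout and 0.770 RPKM in control.

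The Oas enzymes make the messenger that activates ribonuclease L. Oas2 was at 0.231 RPKM labelled knockout and 6.65 RPKM in control, 28.8-fold lower with limits of 21.9 and 38.8. Oas1a was at 1.11 RPKM labelled knockout and 6.76 RPKM in control. Oas3 was at 0.198 RPKM labelled knockout and 3.20 RPKM in control, 16.1-fold lower with limits of 11.8 and 22.0. All Oas values share the caution that near-identical family copies could be split in counting, as could those of Apol9a and Apol9b, of Ifit3 and of the Gbp genes.

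Oasl2, an Oas-like protein, was at 1.36 RPKM labelled knockout and 9.17 RPKM in control, and Oasl1, its relative, was the gene just past the 2-fold line at a log2 difference of -1.02. Eif2ak2, the kinase PKR that stops translation on double-stranded RNA, was at 1.74 RPKM labelled knockout and 4.11 RPKM in control, a log2 difference of -0.90. Bst2, tetherin, which holds budding virus at the cell surface, differed least, at 15.0 RPKM labelled knockout and 16.9 RPKM in control, with limits on its fold of 0.861 and 1.47 that include 1. Bst2 was the only gene of the 44 whose counting limits did so. The low effectors Mx1, Mx2, Cmpk2 and Rsad2 were all under 2 RPKM in control, and Rsad2 was listed at 0 in the library labelled knockout and at 0.227 RPKM in control.

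Isg15, a ubiquitin-like protein that is attached to other proteins, was at 0.592 RPKM (about 30 reads) in epithelium labelled knockout and 11.7 RPKM (about 40 reads) in control, 19.8-fold lower with limits of 11.9 and 32.4. Usp18, the protease that takes Isg15 off again and restrains the type I receptor, was 19.3-fold lower, at 0.238 RPKM labelled knockout and 4.60 RPKM in control. Trim25, a ubiquitin ligase that acts on RIG-I, was at 1.97 RPKM labelled knockout and 5.12 RPKM in control. The modifier and its protease thus had nearly the same fold difference, and Trim25 a smaller one of 2.60. In stroma the difference of these 3 genes was slight, with log2 values between -0.22 and -0.06.

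The Parp proteins, which transfer or bind ADP-ribose, were close to each other in epithelium. Parp9 was at 3.64 RPKM labelled knockout and 7.16 RPKM in control. Parp12 was at 1.803 RPKM labelled knockout and 5.81 RPKM in control. Parp14 was at 1.85 RPKM labelled knockout and 5.31 RPKM in control. Parp9 lies at the same locus as Dtx3l, whose protein binds it, and the reads of these neighbours may have been split.

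Among the other targets, Ifi44 had the largest epithelial fold difference on the RPKM scale of any type I target above 0 in both libraries, with 0.0583 RPKM (about 14 reads) labelled knockout and 4.39 RPKM (about 73 reads) in control, 75.2-fold lower with limits of 42.7 and 146. Rtp4, a chaperone of membrane receptors, was at 0.705 RPKM labelled knockout and 8.28 RPKM in control. Xaf1, a promoter of cell death, was at 1.89 RPKM labelled knockout and 6.58 RPKM in control. These genes have no common role beyond their induction by interferon. Lgals3bp, a secreted glycoprotein, was at 9.11 RPKM labelled knockout and 16.5 RPKM in control, below 2-fold. Ifi35 was at 2.91 RPKM labelled knockout and 6.47 RPKM in control, also below 2-fold on the log2 scale. Apol9a, an apolipoprotein L, was at 0.0857 RPKM labelled knockout and 2.75 RPKM in control.

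**Figure D2:**
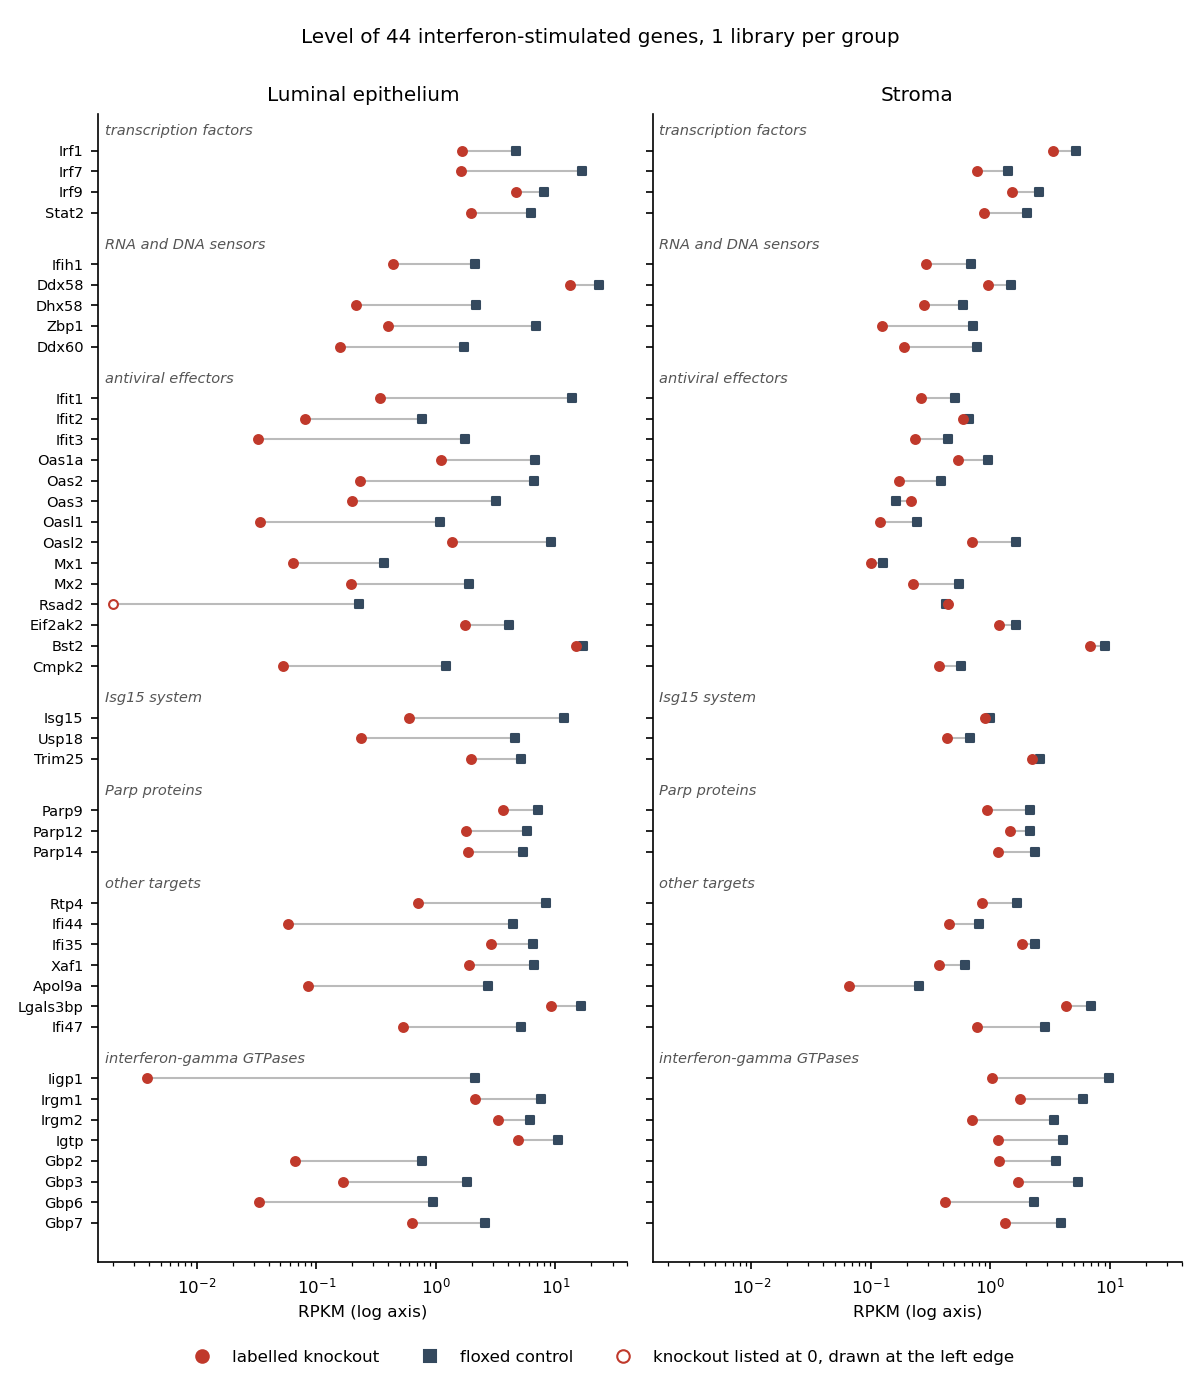
RPKM of each of the 44 genes on a log axis in luminal epithelium (left) and stroma (right), with the library labelled knockout as circles and the floxed control as squares, grouped by role; 1 library per group, and an open circle at the left edge marks the value listed at 0. In epithelium every circle lies left of its square, with the narrowest gap on the axis at Bst2, 15.0 against 16.9 RPKM, and the widest among values above 0 at Iigp1, 0.00386 against 2.14 RPKM; in stroma the circle lies left of its square for 42 of 44 genes, with the widest gap on the axis at Iigp1, 1.04 against 9.83 RPKM.

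In stroma the list was lower as well, but the 2 classes parted. Of the 44 genes, 42 lay below 0, against 35.8% of the genes whose pair mean reached 1 RPKM. At least 2-fold lower were 9, and 0 were 2-fold higher, against 0.547% of all genes 2-fold lower and 0.499% 2-fold higher. Those 9 were all 8 GTPases and Ifi47, so that 1 of 36 type I targets passed 2-fold. That count depends on the pseudocount of 1 RPKM: with 0.1 RPKM 7 of 36 type I targets and 15 of all 44 genes were 2-fold lower, and on the plain RPKM scale 13 of the 36 were at most 0.5 of control. The median log2 difference was -0.37 over the 44 genes, -0.32 over the type I targets and -1.24 over the GTPases, against 0.07 over the 7723 genes whose pair mean reached 1 RPKM, of which 1.59% were 2-fold lower and 1.45% 2-fold higher. The summed level of the type I targets was 36.1 RPKM in stroma labelled knockout and 59.2 RPKM in control, and that of the GTPases 9.25 RPKM labelled knockout and 38.3 RPKM in control. The nearest gene inside the 2-fold line was Gbp7 at -1.07 and the nearest outside it Parp9 at -0.71, so no gene lay close under the line.

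Iigp1, which loads onto the vacuoles of parasites, was the most abundant of the 44 genes in control stroma and had the largest difference there. It was at 1.04 RPKM (about 180 reads) in stroma labelled knockout and 9.83 RPKM (about 1174 reads) in control, 9.49-fold lower with limits of 8.09 and 11.1. In epithelium it was at 0.00386 RPKM, about 1 read, labelled knockout and 2.14 RPKM, about 37 reads, in control, the ratio being 0.00180 and its counting limits 4.6e-05 and 0.0109. Iigp1 was therefore higher in stroma than in epithelium in both genotypes.

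Irgm1, Irgm2 and Igtp encode the regulators that keep the other GTPases of this family off the cell's own membranes. Irgm1 was at 1.75 RPKM in stroma labelled knockout and 5.94 RPKM in control, and at 2.14 RPKM in epithelium labelled knockout and 7.57 RPKM in control. Irgm2 was at 0.705 RPKM in stroma labelled knockout and 3.40 RPKM in control, 4.83-fold lower with limits of 3.99 and 5.87, and at 3.32 RPKM in epithelium labelled knockout and 6.10 RPKM in control. Igtp was at 1.16 RPKM in stroma labelled knockout and 4.08 RPKM in control, and at 4.84 RPKM in epithelium labelled knockout and 10.5 RPKM in control, where it was just short of 2-fold at a log2 difference of -0.98. For Irgm1 the fold was about the same in the 2 compartments, 3.39 in stroma and 3.54 in epithelium, and for Irgm2 and Igtp it was larger in stroma.

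The 4 guanylate-binding proteins of the list, which coat and break up vacuoles and bacteria, were low in epithelium and moderate in stroma. Gbp3 was at 1.69 RPKM in stroma labelled knockout and 5.35 RPKM in control, 3.16-fold lower with limits of 2.72 and 3.69. Gbp6 was at 0.417 RPKM in stroma labelled knockout and 2.30 RPKM in control, 5.51-fold lower with limits of 4.13 and 7.37. Gbp2 was at 1.17 RPKM labelled knockout and 3.56 RPKM in control, and Gbp7 at 1.32 RPKM labelled knockout and 3.87 RPKM in control. Their folds on the RPKM scale in stroma lay between 2.92 and 5.51. In epithelium none of the 4 was above 2.56 RPKM, with Gbp7 the highest of them. Gbp7 was at 0.633 RPKM in epithelium labelled knockout and 2.56 RPKM in control. Gbp3 was at 0.166 RPKM labelled knockout and 1.804 RPKM in control. Gbp6 was at 0.0333 RPKM labelled knockout and 0.955 RPKM in control, and Gbp2 at 0.0667 RPKM labelled knockout and 0.764 RPKM in control. The epithelial folds, between 4.05 and 28.7, rest on 7 to 310 reads labelled knockout and 11 to 86 reads in control.

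Ifi47 was counted with the type I targets because it was not among the listed GTPases, although its protein belongs to the same family as Igtp. It was at 0.776 RPKM in stroma labelled knockout and 2.88 RPKM in control, 3.71-fold lower with limits of 2.80 and 4.94. In epithelium it was at 0.533 RPKM labelled knockout and 5.13 RPKM in control. Its listed locus also holds Tgtp2, a further GTPase of the family, which was at 0.00335 RPKM in stroma labelled knockout and 2.80 RPKM in control but below 0.001 RPKM in each epithelial library, so reads of the 2 genes may have been split. Counted with the GTPases, Ifi47 leaves 0 of 35 type I targets 2-fold lower in stroma.

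The 3 type I targets with the largest epithelial differences on the log2 scale, Ifit1, Isg15 and Irf7, were low in stroma, where the pseudocount shrinks a difference. Ifit1 was at 0.260 RPKM in stroma labelled knockout and 0.508 RPKM in control, a log2 difference of -0.26, or 1.95-fold lower on the RPKM scale with limits of 1.28 and 3.06. Isg15 was at 0.908 RPKM labelled knockout and 0.989 RPKM in control, a log2 difference of -0.06. Irf7 was at 0.777 RPKM labelled knockout and 1.41 RPKM in control, a log2 difference of -0.44. None of these 3 targets was above 1.41 RPKM in stroma. In the order of their roles, the other targets had these stromal values. Among the factors, Irf1 was at 3.35 RPKM labelled knockout and 5.16 RPKM in control. Irf9 was at 1.51 RPKM labelled knockout and 2.53 RPKM in control. Stat2 was at 0.890 RPKM labelled knockout and 2.02 RPKM in control. All 4 factors were thus 1.54-fold to 2.27-fold lower on the RPKM scale, Stat2 the most.

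Zbp1 was the sensor with the largest fold in stroma, 5.74, at 0.123 RPKM labelled knockout and 0.708 RPKM in control, though its limits of 2.66 and 13.4 are wide. Of the Oas group, Oas1a was at 0.539 RPKM labelled knockout and 0.962 RPKM in control. Oas2 was at 0.174 RPKM labelled knockout and 0.384 RPKM in control, 2.22-fold lower with limits of 1.47 and 3.43. Oasl2 stood above its relatives in stroma as well, at 0.707 RPKM labelled knockout and 1.63 RPKM in control.

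In the Isg15 system, Usp18 was at 0.437 RPKM in stroma labelled knockout and 0.669 RPKM in control. Trim25 was at 2.23 RPKM labelled knockout and 2.61 RPKM in control. The 3 Parp genes were at like levels in control stroma. Parp9 was at 0.931 RPKM labelled knockout and 2.16 RPKM in control, Parp14 at 1.16 RPKM labelled knockout and 2.37 RPKM in control, and Parp12, with the smallest fold of the 3, at 1.46 RPKM labelled knockout and 2.13 RPKM in control.

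Lgals3bp was among the most abundant targets in stroma, at 4.32 RPKM labelled knockout and 6.90 RPKM in control. Rtp4 was at 0.857 RPKM labelled knockout and 1.68 RPKM in control. Ifi44, with the largest epithelial fold of the type I targets above 0, was at 0.452 RPKM labelled knockout and 0.799 RPKM in control. Ifi35 and Xaf1 differed by less than 2-fold in stroma. Ifi35 was at 1.85 RPKM labelled knockout and 2.34 RPKM in control. Xaf1 was at 0.372 RPKM labelled knockout and 0.610 RPKM in control.

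The most abundant type I target in stroma was Bst2, at 6.81 RPKM labelled knockout and 9.16 RPKM in control. Only Oas3 and Rsad2 lay above 0 in stroma. Oas3 was at 0.217 RPKM labelled knockout and 0.161 RPKM in control, and Rsad2 was at 0.438 RPKM labelled knockout and 0.423 RPKM in control. The counting limits of both include equal levels, and the sign for Rsad2 turns under 3 other scalings of the libraries.

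Leukocyte markers were lower in stroma labelled knockout too, with 28 of 28 below 0 and 6 at least 2-fold lower, against 0.547% of all genes 2-fold lower and 35.8% of those with a pair mean of at least 1 RPKM below 0, and a summed level of 104 RPKM labelled knockout and 238 RPKM in control. Their median log2 difference there, -0.66, lay between that of the type I targets and that of the GTPases. Cd74, the class II invariant chain, was at 19.8 RPKM labelled knockout and 52.1 RPKM in control, and Ptprc at 1.94 RPKM labelled knockout and 3.58 RPKM in control. Of 10 stromal markers, 7 lay above 0 and 3 below 0 in stroma; Col1a1, Col1a2 and Tcf21 were 2-fold higher in the library labelled knockout, against 0.499% of all genes, and the lowest was Pdgfra at -0.41. The part of leukocytes in the lower GTPases was not tested.

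**Figure D3:**
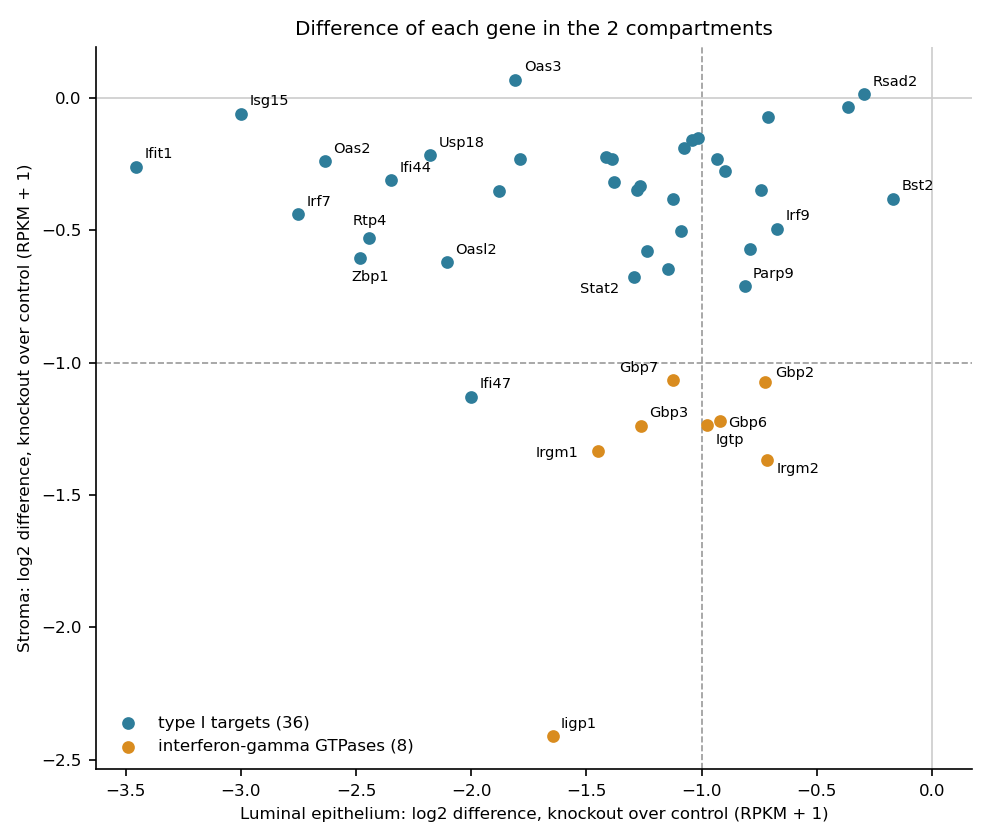
Log2 difference of each gene in luminal epithelium (horizontal) and stroma (vertical), as log2((labelled knockout RPKM + 1)/(control RPKM + 1)), with type I targets and GTPases in separate colours and dashed lines at 2-fold lower. The GTPases and Ifi47 lie below the stromal line, while the other 35 type I targets lie above it and 25 of them left of the epithelial line.

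Set side by side, 42 of 44 genes lay below 0 in both compartments and 5 were 2-fold lower in both: Irgm1, Gbp3, Gbp7, Iigp1 and Ifi47. Of all 23235 genes, 13.3% lay below 0 in both and 0.129% were 2-fold lower in both; of the 5873 whose pair mean reached 1 RPKM in both, these shares were 14.6% and 0.46%. These are 5 of the 30 genes 2-fold lower in epithelium and 5 of the 9 in stroma. The log2 difference was more negative in epithelium for 35 of 36 type I targets, but for 3 of 8 GTPases. On the RPKM scale without a pseudocount the ratio was lower in epithelium for 34 of the type I targets and 6 of 8 GTPases, so the placing of the GTPases depends on the pseudocount. Iigp1 and the 4 Gbp genes were under 1 RPKM in epithelium labelled knockout and under 3 RPKM in control. The difference between the compartments was not tested.

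**Figure D4:**
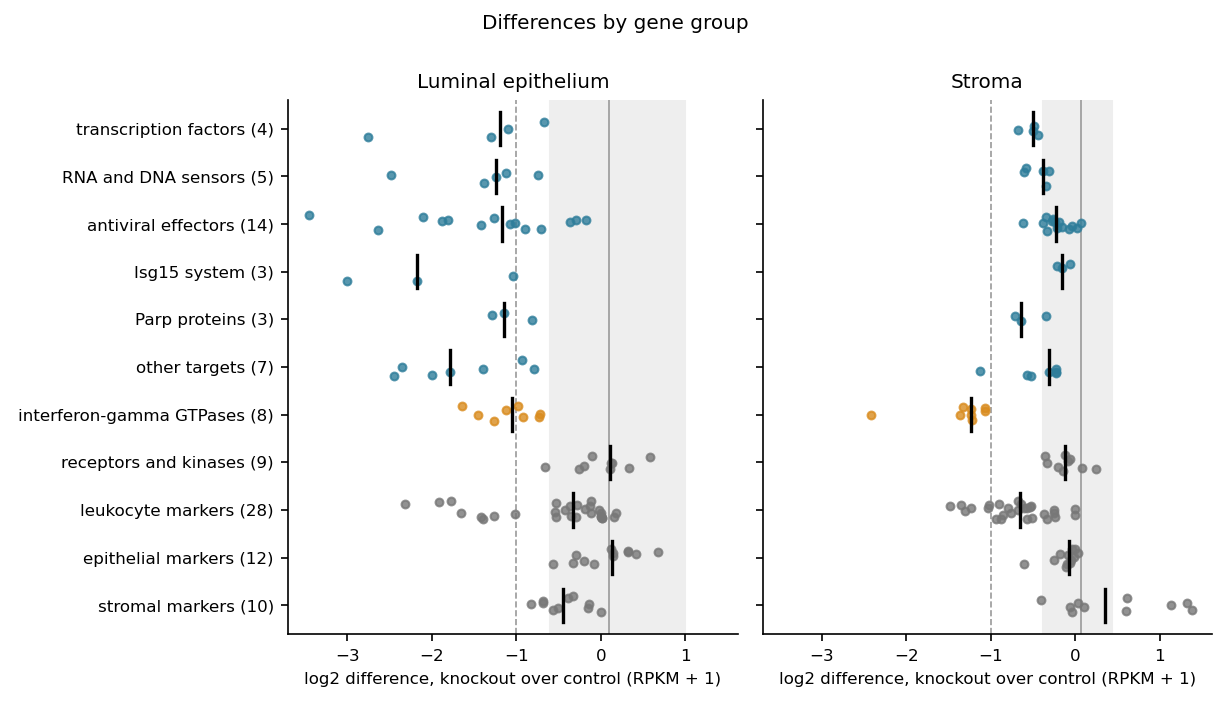
Log2 difference (labelled knockout over control, RPKM + 1) of every gene by role, in epithelium (left) and stroma (right); black bars are medians, the dashed line is 2-fold lower, and the shaded band and grey line give the 5th to 95th percentile and the median of all genes whose pair mean reached 1 RPKM. The medians of the type I groups lie left of the band in epithelium, at -1.15 or below, and between -0.65 and -0.16 in stroma; that of the GTPases is left of the band in both, and that of receptors and kinases lies inside it.

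Levels were also set across compartments within a genotype, although the 2 tables were normalized separately. In control, 21 of 44 genes were at least 2-fold higher in epithelium than in stroma and 3 were 2-fold lower, against 7.31% higher and 5.73% lower of all genes, and 19.6% higher and 12.1% lower of those whose pair mean reached 1 RPKM. Of the 21, 20 were type I targets. Ifit1 was at 13.7 RPKM in control epithelium and 0.508 RPKM in control stroma, 27.0 times as high with counting limits of 19.8 and 37.1. Irf7 was at 16.7 RPKM in control epithelium and 1.41 RPKM in control stroma. The 3 lower genes were Iigp1, Gbp2 and Gbp3. In the libraries labelled knockout, 7 of 44 were 2-fold higher in epithelium than in stroma and 3 were 2-fold lower, against 7.95% higher and 5.28% lower of all genes, and 20.7% higher and 10.7% lower of those whose pair mean reached 1 RPKM.

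The 7 genes that were higher there were Ddx58, Xaf1, Irf9, Parp9, Bst2, Irgm2 and Igtp. Ddx58 was at 13.3 RPKM in epithelium and 0.955 RPKM in stroma of the libraries labelled knockout. The median type I target was at 0.562 RPKM in epithelium and 0.563 RPKM in stroma of the libraries labelled knockout, and at 5.22 RPKM in epithelium and 0.881 RPKM in stroma of control. Leukocyte markers went the other way in control, where 28 of 28 were lower in epithelium than in stroma, against 34.3% of all genes whose pair mean reached 1 RPKM. In the libraries labelled knockout, 3 other scalings moved the median gene by -0.27 to -0.34 on the log2 scale, and the count of genes higher in epithelium lay between 2 and 10 under all alternatives. In control those scalings moved the median gene by -0.17 to -0.36, and the count of 21 lay between 14 and 30 under all alternatives.

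**Figure D5:**
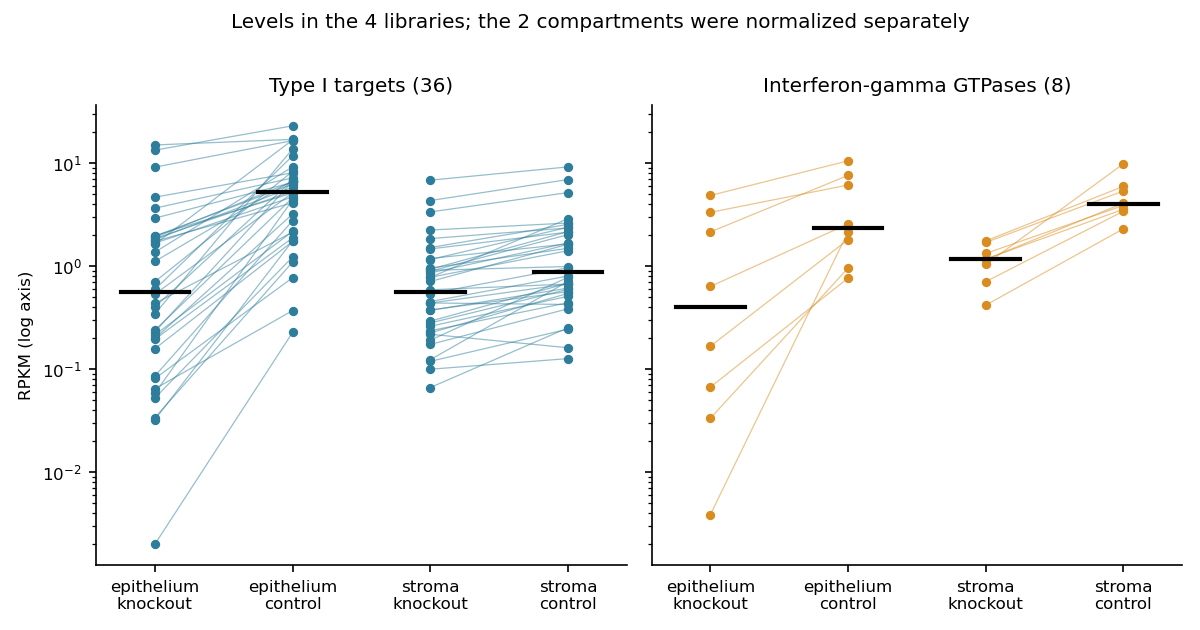
RPKM on a log axis of the 36 type I targets (left) and 8 GTPases (right) in the 4 libraries, lines joining each gene within a compartment and black bars marking medians; the value listed at 0 is drawn at the bottom. Medians of the type I targets were 0.562, 5.22, 0.563 and 0.881 RPKM in the order of the axis, so control epithelium stands above the other 3 libraries, while for the GTPases control stroma has the highest median.

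The authors' deposited table of the epithelial comparison marked 13 of the 44 genes significant, all lower labelled knockout, against 94 of 23235 genes in all (0.405%). In the authors' deposited table the lowest q-value among them was 1.7e-05 for Ifi44, followed by 1.72e-04 for Ifit3 and 3.46e-04 for Ifit1. The authors' deposited table gave q = 0.00705 for Isg15, but 0.190 for Irf7 and 0.0742 for Zbp1. For stroma the authors' deposited table marked 0 of the 44 genes, and 5 genes in all (0.0215%), with 0.122 as the lowest q-value of the list. Some of the 44 were listed there as not tested: Oas3, Oasl1, Mx1 and Apol9a in stroma, and Rsad2 in epithelium. The authors' q-values compare 2 libraries, not the genotypes.

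Upstream of the list, the 10 ligands, 6 receptor subunits, 3 kinases, 9 genes of interferon induction and 4 inhibitors of the pathway were followed as separate groups. On the log2 scale with its pseudocount, each of these groups had 0 genes 2-fold lower and 0 genes 2-fold higher. This held in epithelium and in stroma, labelled knockout over control. Of all genes, 0.813% were 2-fold lower and 1.82% 2-fold higher in epithelium, and 0.547% and 0.499% in stroma. For groups of this size a count of 0 is near those shares, and most ligands were listed at 0. On the RPKM scale without a pseudocount, Ifne and Ifnk passed 2-fold higher in epithelium. Tlr9 passed 2-fold lower there, on about 2 reads labelled knockout and 3 in control. In stroma Ptpn6 passed 2-fold lower, at a ratio of 0.493. Among the receptor subunits, Ifnar1 was at 2.80 RPKM in epithelium labelled knockout and 2.54 RPKM in control, and Ifngr1 at 1.46 RPKM labelled knockout and 1.24 RPKM in control. Ifngr2, the second subunit of the gamma receptor, was lower without reaching 2-fold, at 5.57 RPKM labelled knockout and 9.37 RPKM in control. The kinase Jak2 was at 39.9 RPKM in epithelium labelled knockout and 31.4 RPKM in control.

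Among the 10 ligands, 8 were listed at 0 in each epithelial library and 9 in each stromal library. Ifne, the interferon-epsilon of the female reproductive tract, was at 1.64 RPKM in epithelium labelled knockout and 0.681 RPKM in control, on about 69 and 2 reads, with limits on the ratio of 0.628 and 19.9. Ifnk was at 0.850 RPKM in epithelium labelled knockout and 0.242 RPKM in control, on about 46 and 1 reads. Its limits on the ratio were 0.537 and 127. Ifng, interferon-gamma itself, was at 0 in each library but control stroma, where it was at 0.0490 RPKM. The inhibitors Socs1 and Socs3 were under 2 RPKM throughout.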

How the data were processed

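The 4 libraries were made from laser-captured cells with a stranded total RNA kit after ribosomal RNA depletion, per the labels' protocols. The authors deposited 1 table per compartment; per the file headers, each holds RPKM for the library labelled knockout and for control, together with a p-value, a q-value and a log2 fold change from a comparison by the authors. CASAVA 1.8.2, TopHat2 2.0.5, Cufflinks 2.0.2 and build mm9 are named in the submitters' processing notes, without their settings or the use of strand, so reads of antisense partners cannot be told apart. The tables are taken as normalized separately.

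From the deposited RPKM, log2((labelled knockout + 1)/(control + 1)) was computed for all 23235 genes, with a pseudocount of 1 RPKM and no minimum of expression, and called from 2-fold. With 1 library per group no p-value was computed. The size of 1 read was estimated from genes with 0.5 to 4.5 reads, taking transcript length less 200 bases. Of those values, 63.7% to 65.3% came out within 0.2 of a whole read. The depth was picked to bring these values near whole reads, so this share is partly set by the fit. Evenly spread values would also fall in that window in part. Limits on ratios are 95% Clopper-Pearson limits on estimated reads and cover counting error only. The estimate was run on simulated data whose reads were whole by construction. That run cannot show whether the deposited values stand for whole reads. Locus starts, counted from 0 in the files, were raised by 1. Python 3.11.15, pandas 2.3.3 and scipy 1.17.1 were used. Motifs were sought in RefSeq promoter windows of GRCm38.p6, and transcript lengths came from GENCODE by RefSeq identifier.

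The 44 genes, the pathway, marker and other lists were chosen with earlier results of these data known. The transcription factors of the pathway list are, as a group, not reported here. Genes at 5 RPKM or more in any library, the 10 with the largest log2 difference in either compartment and all GTPases were to be given in full. Alternatives covered the pseudocount, a minimum of 1 RPKM, 3 scalings, counting limits and the class of Ifi47.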

Additional observations from a re-analysis of the deposited data

Results flagged for a closer look

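Some genes differed in sign between the compartments, as log2((labelled knockout + 1)/(control + 1)), and in each case the difference between compartments was not tested. Oas3 was at -1.81 in epithelium and 0.0687 in stroma. Rsad2 was at -0.295 in epithelium and 0.0144 in stroma. Among interferon-induced genes outside the 44, the interferon-induced transmembrane genes, whose proteins block virus entry, lay above 0 in epithelium and below 0 in stroma: Ifitm1 at 2.31 in epithelium and -0.287 in stroma, Ifitm2 at 1.57 in epithelium and -0.113 in stroma, and Ifitm3 at 0.843 in epithelium and -1.03 in stroma.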

How the results depend on the processing

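With 1 library per group, no gene has a replicate check. With a pseudocount of 0.1 RPKM, 7 of 8 GTPases were 2-fold lower in epithelium, and the epithelial medians were -2.438 over the 44 genes, -2.584 over type I targets and -2.117 over GTPases; in stroma 15 of the 44 genes and 7 type I targets were 2-fold lower, with medians of -0.769 over the 44 genes and -1.719 over GTPases, and 9 genes were lower in epithelium than in stroma labelled knockout. With 0.5 RPKM, 7 GTPases were 2-fold lower in epithelium and the stromal GTPase median was -1.491. A minimum of 1 RPKM left 24 genes in stroma, 24 of them below 0, and 0 lower in epithelium than in stroma labelled knockout. There the count of genes higher in epithelium was 2 after division by the upper quartile, 3 without the 50 most abundant genes and 3 with the median log ratio set to 0. With Ifi47 among the GTPases, 0 type I targets were 2-fold lower in stroma. The other 125 comparisons of a summary value with an alternative stayed near the main value by the rule used. That rule let counts move: the epithelial count of 30 genes 2-fold lower lay between 25 and 38 under the alternatives. No median of the 44 genes or of either class changed sign. Of the values of single genes, 79 moved by more than their counting error and 551 did not. Scaling without the 50 most abundant genes moved the epithelial median of genes with at least 1 RPKM by -0.18. The shallow control epithelium limits the values of genes under about 1 RPKM. No paired analysis was possible because each group holds 1 library.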

Other observations

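Other genes known to be induced by interferon were followed from a separate list, 51 of whose 59 genes were found. In epithelium 15 of the 51 were at least 2-fold lower and 2 at least 2-fold higher in the library labelled knockout, against 0.813% lower and 1.82% higher of all genes. In stroma 6 were 2-fold lower and 0 2-fold higher, against 0.547% lower and 0.499% higher of all genes. Tap1, Psmb8 and Psmb9, which cut peptides or carry them to class I molecules for antigen presentation, were at least 2-fold lower in both compartments. Psmb10, on the same list, was short of 2-fold in both, with log2 differences of -0.49 in epithelium and -0.51 in stroma. Tap1, the peptide transporter, was at 1.32 RPKM in epithelium labelled knockout and 9.45 RPKM in control, and at 1.72 RPKM in stroma labelled knockout and 5.06 RPKM in control. Psmb9, a subunit of the immunoproteasome, was at 1.51 RPKM in epithelium labelled knockout and 10.5 RPKM in control, and at 2.48 RPKM in stroma labelled knockout and 8.61 RPKM in control. Psmb8, a companion subunit, was at 6.82 RPKM in epithelium labelled knockout and 18.3 RPKM in control, and at 3.84 RPKM in stroma labelled knockout and 8.87 RPKM in control. Nlrc5, the activator of class I genes, was at 0.0353 RPKM in epithelium labelled knockout and 1.23 RPKM in control.

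The 2 higher genes were Ifitm1 and Ifitm2. Ifitm1 was at 92.2 RPKM in epithelium labelled knockout and 17.8 RPKM in control, 5.17 times as high with counting limits of 4.07 and 6.69. Ifitm2 was at 63.9 RPKM labelled knockout and 20.9 RPKM in control. Ifitm3 was the most abundant of the 51 genes in epithelium, at 163 RPKM labelled knockout and 90.5 RPKM in control, while in stroma it was at 20.6 RPKM labelled knockout and 43.1 RPKM in control. Isg20, a ribonuclease, was at 28.8 RPKM in epithelium labelled knockout and 22.6 RPKM in control.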
